A study of Mus musculus with 16 samples.

Results

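Small nucleolar RNAs (snoRNAs) and small Cajal body RNAs (scaRNAs) were examined in mouse pluripotent cells in which the kinase ERK was switched on and then blocked. The RNAs are the genes that the GENCODE mouse annotation M21 types as snoRNA or scaRNA and that held at least 80 counts in all libraries together. Of 1558 such genes in the deposited count table, 62 met this rule, 56 typed snoRNA and 6 typed scaRNA, and 1144 had no count in any library. The 62 held 86.5% of all counts of the 1558 genes but 0.0241% of all counts in the table. Just inside the threshold lay Gm25776 with 86 counts and Gm27326 with 85, and just outside it Snora23 with 74 and Scarna6 with 73. The members were thus chosen by their summed counts, a level over all samples that uses no comparison between groups.

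The cells were the line CRAFR26, called RSC in the labels, a pluripotent state derived from embryonic stem cells. They carry a c-RAF kinase construct that 4-hydroxytamoxifen (4OHT) induces, which activates ERK, and were grown in N2B27 medium with the Wnt secretion inhibitor IWP2, the MEK inhibitor PD03 and LIF. Before the experiment all cells, controls included, had PD03 replaced for 48 h by 250 nM of the FGF receptor inhibitor PD17. The group 0h received nothing further, 2h and 4h received 250 nM 4OHT for 2 h and 4 h, and rev received 4OHT for 4 h and then a MEK inhibitor for 2 h at a dose that the labels do not give. Each of the 4 groups had 4 libraries, 2 from clone 4 and 2 from clone 8, so every group rests on the same 2 clones of 1 construct. Nothing states that the 2 libraries of a clone came from separate cultures, so p-values may in part measure technical spread. No group of the same age as rev without the inhibitor was analysed here, so rev and 4h also differ by 2 h of culture. All 10 pluripotency markers were present, from Otx2, at 4.18 to 15.9 CPM, to Nanog, at up to 722 CPM, while 18 markers of other lineages ranged from 0 to 21.7 CPM. Primitive endoderm markers reached 4.17 CPM (Gata4), mesoderm 7 (Eomes), neural 21.7 (Pax6), trophoblast 16.7 (Gata3) and fibroblast 2.03 (Col1a1), several of them above the lowest values of Otx2.

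SnoRNAs are short nuclear RNAs that direct chemical changes of other RNAs by base pairing. Box C/D RNAs assemble with fibrillarin, Nop56, Nop58 and Snu13 and guide ribose methylation, and box H/ACA RNAs assemble with dyskerin, Gar1, Nhp2 and Nop10 and guide pseudouridylation, mostly of ribosomal RNA in the nucleolus. ScaRNAs carry the same kinds of boxes and act on spliceosomal RNAs in Cajal bodies. In mammals most are cut from introns of host genes, many of which encode ribosomal proteins, and a few have promoters of their own.

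Symbols gave a class to 32 members (19 box C/D, 7 box H/ACA and 6 scaRNA), and 30 had predicted-gene or other names. For these the letters of the annotated transcript were read, a step added after the data had been seen. Box C/D letters were NTGATGA starting within the first 15 bases together with CTGA starting within the last 19. Box H/ACA letters were ACA followed by exactly 3 bases at the 3′ end, all searched on the transcript strand alone. By these letters 6 of the 30 were box C/D, 17 box H/ACA and 7 neither, and the last are called unclassed. The letters were also absent from 7 of the 19 members with box C/D symbols and 1 of the 7 with box H/ACA symbols. Unclassed RNAs may thus belong to either class. Over all 1558 annotated genes 20% held the box C/D letters and 19.3% the box H/ACA letters. Of the 1365 without a class by symbol, 17.4% were read as each. The classes used below hold 25 box C/D, 24 box H/ACA, 6 scaRNA and 7 unclassed members.

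Some of the members on which the results turn are printed from the GENCODE M21 transcripts, 5′ to 3′ with T for U, on the build GRCm38. For box C/D RNAs the capitals mark NTGATGA within the first 30 bases and the last CTGA, and for the others the ACA before the last 3 bases. Snord32a and Snord34 lay at chr7:45127382-45127464 and chr7:45126601-45126670 in introns of Rpl13a on the minus strand. Snord49b, Snord49a and Snord65 lay in introns of the noncoding gene 2410006H16Rik on the plus strand, at chr11:62603079-62603150, chr11:62603450-62603521 and chr11:62604515-62604586. The H/ACA RNAs Gm25117 (chr10:111481493-111481636, plus strand, intron of Nap1l1), Gm24727 (chr8:33691801-33691944, plus strand, intron of Gsr) and Gm26397 (chr8:126944847-126944980, minus strand, intron of Tomm20) are shown because their time courses differed between the clones or fell at 2h. The scaRNA Gm22442 (chr11:69350518-69350661, minus strand, intron of Chd3) is shown for its clone difference.
Snord32a: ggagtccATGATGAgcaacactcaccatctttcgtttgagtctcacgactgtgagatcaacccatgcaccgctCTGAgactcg
Snord34: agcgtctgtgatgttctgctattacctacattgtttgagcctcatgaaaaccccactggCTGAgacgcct
Snord49b: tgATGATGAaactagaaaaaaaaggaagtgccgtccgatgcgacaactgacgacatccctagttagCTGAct
Snord49a: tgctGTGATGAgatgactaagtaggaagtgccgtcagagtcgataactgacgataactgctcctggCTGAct
Snord65: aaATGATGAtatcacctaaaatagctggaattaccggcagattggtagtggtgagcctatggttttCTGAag
Gm25117: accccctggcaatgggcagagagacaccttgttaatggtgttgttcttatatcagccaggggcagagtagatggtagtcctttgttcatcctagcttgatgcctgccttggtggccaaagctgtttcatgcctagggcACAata
Gm24727: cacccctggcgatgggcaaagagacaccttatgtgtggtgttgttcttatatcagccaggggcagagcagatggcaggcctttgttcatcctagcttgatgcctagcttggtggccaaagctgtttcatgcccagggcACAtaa
Gm26397: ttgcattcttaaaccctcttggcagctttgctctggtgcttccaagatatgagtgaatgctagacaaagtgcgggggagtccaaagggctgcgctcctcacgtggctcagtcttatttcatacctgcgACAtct
Gm22442: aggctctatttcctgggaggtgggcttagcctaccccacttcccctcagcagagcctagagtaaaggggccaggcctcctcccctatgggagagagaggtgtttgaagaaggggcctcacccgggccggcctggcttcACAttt
Snord34 has no NTGATGA within its first 30 bases. Gm25117 and Gm24727 were 88.9% identical, and each was over 90% identical to a further member, Gm25291 (92.4% and 93.8%). In all, 19 members had an annotated snoRNA or scaRNA copy of at least 90% identity, Gm25117, Gm24727, Gm23119, Gm22270 and Gm22442 among them, so reads could be split or shared between copies in ways that the sources used here do not state.

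Levels are given in CPM, counts scaled to library size with TMM over the tested genes, and levels of different RNAs are compared per kilobase of transcript. Snord13, an independently transcribed RNA that assists acetylation of 18S ribosomal RNA, had the highest mean level per length, 191 CPM per kb. Scarna2, which guides methylation of the U2 spliceosomal RNA and also has no host, followed with 151 CPM per kb, then Gm26397 with 106, Snord32a with 86.2 and Gm25117 with 74.4. Scarna2 alone held 7893 of the 29989 member counts. By class, median levels were 45.5 CPM per kb for scaRNAs, 18.5 for box C/D, 10.5 for box H/ACA and 9.65 for unclassed RNAs. Most members were sparse: the median count over all 16 libraries together was 189 for box C/D and 177 for box H/ACA members. In single libraries 3 counts, the limit that a count of 0 allows, corresponded to between 0.21 and 0.908 CPM.

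A filter on low counts, applied to all genes, kept 50 of the 62 members for testing: 19 box C/D, 19 box H/ACA, 6 scaRNA and 6 unclassed. Snord72, Snord58b, Snord70, Snord110, Snora41, Gm22422, Gm23301, Gm22154, Gm23105, Gm22571, Gm25776 and Gm27326 were not tested. Changes were tested with edgeR's quasi-likelihood test over 12742 genes with clone as a covariate, and a gene was called at a Benjamini-Hochberg adjusted p under 0.05. Changes are log2 fold changes with standard errors (SE).

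Summed levels of the box C/D, box H/ACA and scaRNA classes were lowest at 2h, and those of the unclassed RNAs at 0h. Box C/D RNAs summed to 89.8 ± 26.2 CPM at 0h (SD, n = 4), 52.6 ± 19.5 at 2h, 84.2 ± 24.6 at 4h and 77.3 ± 10.8 at rev. At 2h the clone 4 libraries held 76.5 and 60.4 CPM of box C/D RNA and the clone 8 libraries 39.1 and 34.5. Box H/ACA RNAs summed to 62.0 ± 12.5, 49.2 ± 25.1, 77.4 ± 23.4 and 67.2 ± 12.2 CPM in the same order. At 2h they stood at 79.7 and 59.9 CPM in clone 4 but at 26.8 and 30.6 in clone 8, against 53.1 and 75.7 in clone 8 at 0h. ScaRNAs summed to 99.0 ± 17.2, 77.9 ± 21.2, 103 ± 12.6 and 102 ± 16.2 CPM. The 7 unclassed RNAs summed to 7.22 ± 0.465 CPM at 0h, 9.41 ± 1.61 at 2h, 8.56 ± 0.814 at 4h and 10 ± 1.46 at rev. Leaving Snord13 out, the box C/D sum was 59.5 ± 13.1 CPM at 0h and 43.5 ± 13.7 at 2h. The sums are a description with no test. In bulk RNA, fewer cells with an RNA and less of it per cell cannot be told apart.

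**Figure D1:**
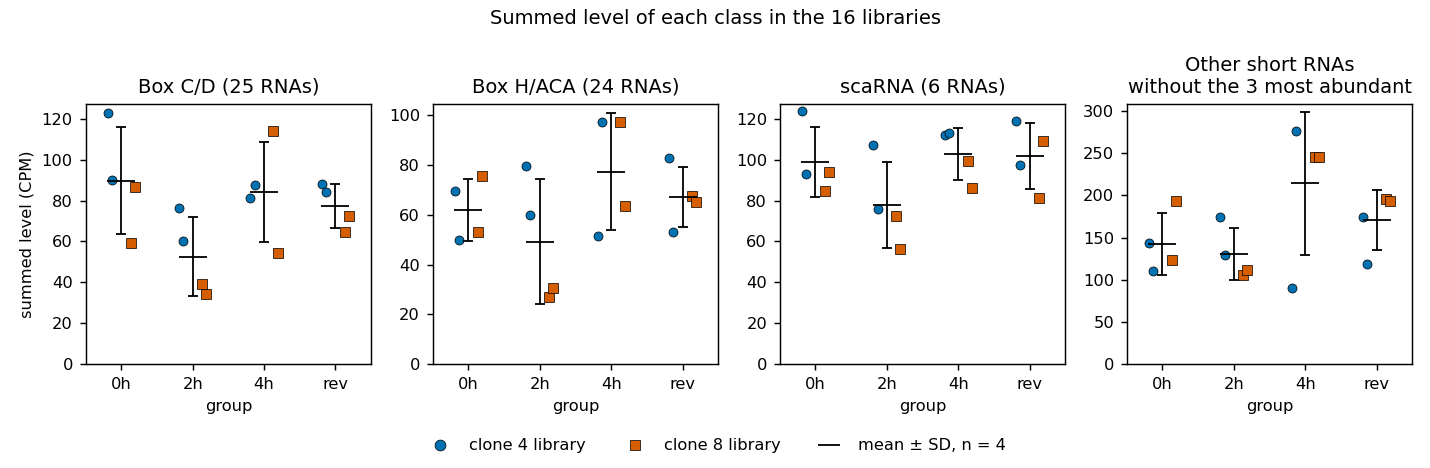
Summed level in CPM of the box C/D, box H/ACA and scaRNA members and of other short RNAs without the 3 most abundant, by group; circles are clone 4 libraries, squares clone 8 libraries, bars the mean ± SD of 4. At 2h the clone 8 libraries hold 39.1 and 34.5 CPM of box C/D and 26.8 and 30.6 CPM of box H/ACA RNA, below both clone 4 libraries of that group.

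The clone 8 libraries of 2h had the lowest shares of very abundant features. The 8 most abundant features, each over 1% of the counts, took 52.1% and 46.7% of them, and 53.3% to 78.9% of the other 14 libraries. Their TMM factors were 1.26 and 1.40, and their raw member counts, 1942 and 1841, lay inside the range of the others (743 to 3181). Library 1 of clone 8 at 4h was close to them in composition, with a share of 53.3% and a TMM factor of 1.23, but its members summed to 320 CPM. Among other short RNAs, 16 tested snRNA, misc_RNA and ribozyme genes had a median log2 change of -0.46 at 2h against 0h, with 10 below 0 and 6 above. None of the 16 was called lower, and Rprl2 was called higher, at 2.06 (SE 0.556, adjusted p = 0.016). Rny3, a Y RNA of 102 bases, changed by -1.05 without a call (adjusted p = 0.226), whereas the longer Rn7sk, at 331 bases, stood at 0.36 (adjusted p = 0.293). The part of library composition in the member changes was not tested. With scaling by library totals in place of TMM, the median change of all genes at 2h moved to 0.11. The members' median was then -0.19, and 4 of 50 were called, all lower, where 3.5% of all genes were called.

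At 2h against 0h, 9 of 50 tested members were called, 8 lower and 1 higher, where 17% of all tested genes were called, 7.48% lower and 9.49% higher. The median change was -0.27 over the 50 members, -0.53 over box C/D, -0.22 over box H/ACA and -0.34 over scaRNAs, against 0.003 over all tested genes. Leaving out single libraries moved the count: it was 3 without library 1 of clone 4 at 0h, 2 without library 2 of clone 8 at 0h, 14 without library 1 of clone 4 at 2h, 4 without library 2 of clone 4 at 2h, and 3 without either clone 8 library of 2h. The share of all genes called is not given here or below for any of the 16 fits that left out 1 library. Counts from those fits thus cannot be set against the genes at large. Snord13 and Gm23119 remained called in every one of these 16 fits, and the other 7 lost the call in 4 to 11 of them. Without both clone 8 libraries of 2h, a fit added after the data had been seen, 1 of 57 tested members was called and it was higher. In that fit 10.9% of all genes were called.

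Snord13 fell most at 2h. Its levels were 48.1 and 28.6 CPM in clone 4 and 15.7 and 28.7 in clone 8 at 0h, and 14.5, 15.3, 2.51 and 4.07 in the same order at 2h. At 4h they were 23.3, 25.7, 41.9 and 11.2, and at rev 21.9, 16.7, 9.39 and 10.2. All 4 libraries of 2h lay below all 4 of 0h, by a narrow margin. Such a separation held for 3 of 50 tested members, 6%, and for 7.68% of all tested genes. The 4h libraries of clone 8 differed widely from each other in Snord13. The log2 change was -1.89 (SE 0.384, adjusted p = 0.00278) at 2h against 0h and 1.81 (SE 0.389, adjusted p = 0.00625) at 4h against 2h, comparisons that share the 2h libraries. Fitted alone, clone 4 gave -1.35 and clone 8 -2.70 at 2h, both called. Without both clone 8 libraries of 2h the change was -1.21 and not called (adjusted p = 0.0633).

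The Rpl13a introns hold 3 members, all guides of ribosomal RNA methylation. Snord32a stood at 12.8, 4.85, 5.71 and 10.1 CPM at 0h (clone 4, then clone 8) and at 6.87, 4.84, 1.98 and 1.61 at 2h. Its 0h and 2h ranges overlapped through clone 4. It fell by 1.24 on the log2 scale at 2h (SE 0.413, adjusted p = 0.044) and rose by 1.44 from 2h to 4h (SE 0.407, adjusted p = 0.0269). Snord34 fell by 1.03 (SE 0.342, adjusted p = 0.0434), and Snord35a changed by -0.59 without a call (adjusted p = 0.222). Their host Rpl13a, a ribosomal protein gene, changed by 0.08 (adjusted p = 0.637).

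Within the host 2410006H16Rik the 3 members moved differently at 2h. Snord49b fell by 0.92 (SE 0.313, adjusted p = 0.0489), its near relative Snord49a stood at 0.28 (adjusted p = 0.469), and Snord65 rose by 1.15 (SE 0.351, adjusted p = 0.0292). By DESeq2 and with library totals no member was called higher at 2h, so the rise of Snord65 lost its call there. Snord65 was sparse, with 150 counts in all: 1.20, 1.06, 0.519 and 0.144 CPM at 0h, 1.82, 1.94, 1.52 and 0.981 at 2h, 0.667, 0.762, 0.905 and 0.613 at 4h, and 1.81, 1.94, 0.908 and 1.15 at rev. The means were higher at 2h and rev, 1.56 and 1.45 CPM, than at 0h and 4h, 0.731 and 0.736, and the 0h and 2h libraries overlapped. The host changed by 0.38 (adjusted p = 0.117). Snord104, which has no host in the annotation, fell by 0.85 (SE 0.289, adjusted p = 0.0492), from 5.45 ± 2.07 to 3.01 ± 0.877 CPM (SD, n = 4). Snord34, Snord49b, Snord65, Snord104 and Gm22270 held few counts, and naming their changes was decided after their values were seen.

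Among box H/ACA members 2 of 19 fell at 2h. Gm25117 stood at 17.8, 11.5, 8.40 and 13.9 CPM at 0h, 10.1, 8.85, 2.66 and 3.22 at 2h, 12.5, 15.2, 18.9 and 7.66 at 4h and 16.4, 6.98, 9.99 and 7.29 at rev. Both clone 8 libraries of 2h were below every other library, and in clone 4 the 2h libraries lay below those of 0h and 4h but between those of rev. The change was -1.18 at 2h against 0h (SE 0.335, adjusted p = 0.021) and 1.33 at 4h against 2h (SE 0.332, adjusted p = 0.0149). Gm22270, in an intron of the ribosomal protein gene Rpl5, fell by 1.02 (SE 0.331, adjusted p = 0.0396) and rose by 1.03 from 2h to 4h (SE 0.332, adjusted p = 0.0491). Its level went from 2.63 ± 0.344 CPM at 0h to 1.43 ± 0.866 at 2h and 2.67 ± 0.703 at 4h (SD, n = 4). The rise of Gm22270 from 2h to 4h lost its call in 14 of the 16 fits that left out 1 library. The hosts Nap1l1 and Rpl5 changed by 0.04 and 0.05 at 2h, neither called.

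Of the 6 scaRNAs, Gm23119 fell at 2h. It stood at 11, 8.34, 6.02 and 6.90 CPM at 0h, 5.58, 5.67, 2.51 and 1.47 at 2h, 10.4, 9.90, 6.43 and 4.44 at 4h and 7.57, 3.59, 5.15 and 4.86 at rev. Every 2h library was below every 0h library, as in 7.68% of all tested genes, and clone 8 was below clone 4 at 0h, 2h and 4h. The changes were -1.19 at 2h against 0h (SE 0.259, adjusted p = 0.00415) and 1.13 at 4h against 2h (SE 0.260, adjusted p = 0.00952). Without both clone 8 libraries of 2h the first was -0.76 and not called (adjusted p = 0.0879). Gm23119 has no annotated host and lies 91 bases from Scarna17 on the same strand of chromosome 18 (74778561 to 74778700 against 74778391 to 74778469), so the pair may not be independent. Scarna17, a box C/D scaRNA, changed by -0.51 (adjusted p = 0.403).

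The other scaRNAs were not called at 2h. Scarna2 stood at 83.3, 62.3, 55.3 and 61.1 CPM at 0h and at 65.6, 47.4, 53.7 and 37.6 at 2h, a change of -0.35 (SE 0.143, adjusted p = 0.0956). It was the deepest member, and its groups overlapped. Scarna13 changed by -0.32 (adjusted p = 0.242), Gm22442 by -0.27 (adjusted p = 0.645) and Gm22009, in an intron of the importin gene Kpna4, by 0.19 (adjusted p = 0.588). Snord17, a long box C/D RNA that the naming rule asks for, ranged from 3.72 to 7 CPM over the 16 libraries and was called in no comparison.

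**Figure D2:**
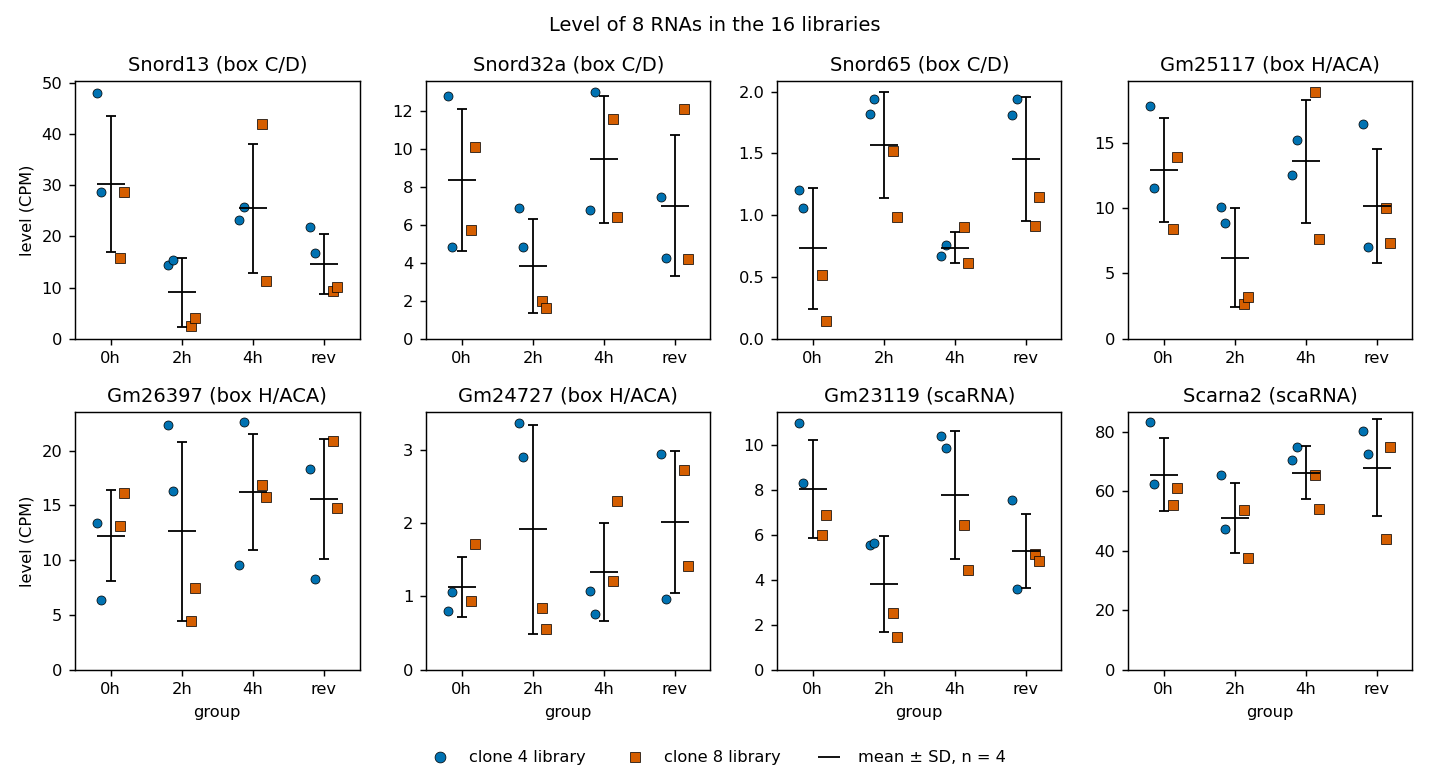
Level in CPM of 8 members by group; circles are clone 4 libraries, squares clone 8 libraries, bars the mean ± SD of 4. Snord13 is at 14.5, 15.3, 2.51 and 4.07 CPM at 2h, below all 0h libraries, while Gm26397 and Gm24727 are high at 2h in clone 4 and low in clone 8.

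The 2 clones were then compared in their response to 2 h of induction, by subtracting the change in clone 4 from that in clone 8. Of 50 members 2 were called, both lower in clone 8, where 7.94% of all tested genes were called, 5.01% lower and 2.93% higher. Gm26397 went in opposite directions: in clone 4 it stood at 13.4 and 6.37 CPM at 0h and 22.3 and 16.3 at 2h, and in clone 8 at 13.1 and 16.1 and then 4.41 and 7.50. The clones did not overlap at 2h. The difference was -2.29 (SE 0.442, adjusted p = 0.00094), and Gm26397 was called in each clone alone, at 1.01 and -1.27. Gm24727 stood at 0.799 and 1.06 CPM at 0h and 3.37 and 2.90 at 2h in clone 4, and at 0.934 and 1.72 and then 0.836 and 0.561 in clone 8. Its difference was -2.58 (SE 0.757, adjusted p = 0.0297), resting on 192 counts in all. Their hosts Tomm20 and Gsr differed between the clones by 0.05 and -0.23, neither called. By DESeq2 neither difference was called (adjusted p = 0.076 and 0.104). The count was 4 without library 1 of clone 4 at 0h or at 4h or library 2 of clone 4 at 4h, and 1 without library 2 of clone 4 or of clone 8 at 0h, library 1 of clone 4 at 2h or library 2 of clone 8 at 2h. For these fits the share of all genes called is not given.

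The box H/ACA members all lay on the same side of this difference. All 19 tested had a negative value, from -2.58 to -0.20 with a median of -1.44. Of the 19, 2 were called, neither by DESeq2, where edgeR called 5.01% of all genes lower. An unadjusted p under 0.05 was held by 10, a threshold at which no share of all genes is given here. The median was -0.25 over box C/D members, 15 of 19 of them negative, -0.66 over scaRNAs and -0.02 over all tested genes. The 16 other short RNAs had a median of -1.26, with Rny1 at -2.90 (adjusted p = 0.0263) and the snRNA gene Gm25360 at -1.63 (adjusted p = 0.0284) called. Under library totals the members' median was -0.05 against 0.56 over all tested genes.

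Fitted alone, with 2 libraries a group and the spread pooled over that clone's 8 libraries, clone 8 had 15 of 53 tested members lower at 2h and 1 higher, where 17.8% of all genes were called, 9% lower and 8.83% higher. Of 20 box H/ACA members 8 were lower, Gm25788 by -2.14 and Gm25291 by -2.04 among them, and the median was -1.19. From 2h to 4h 19 of the 53 were higher and none lower (9.65% of all genes called, 4.58% higher and 5.07% lower), 11 of them H/ACA RNAs with a class median of 1.39. From 2h to rev 10 were higher (3.49% of all genes called, 1.85% higher and 1.64% lower). These 3 comparisons share the 2h libraries. From 0h to 4h 1 was higher (6.28% of all genes called, 3.5% higher and 2.78% lower). In clone 4 alone 2 of 51 members were lower at 2h, Snord13 and Gm23119, and 2 higher, Gm26397 and Gm24727 (20.7% of all genes called, 8.61% lower and 12.1% higher). From 2h to 4h clone 4 had 2 higher and 1 lower (27.1% called, 12.5% higher and 14.6% lower), and from 0h to 4h 3 lower (19% called, 8.58% lower and 10.4% higher). The 2 clones share no libraries: among 47 members tested in both, 24 were below 0 in both at 2h, 8 above 0 in both, and 15 above 0 in clone 4 and below 0 in clone 8. Over other short RNAs clone 8 had 9 of 21 lower and 2 higher at 2h and clone 4 had 3 of 16 higher. Of 42 hosts of members, 8 were higher at 2h in each clone alone and 0 lower.

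**Figure D3:**
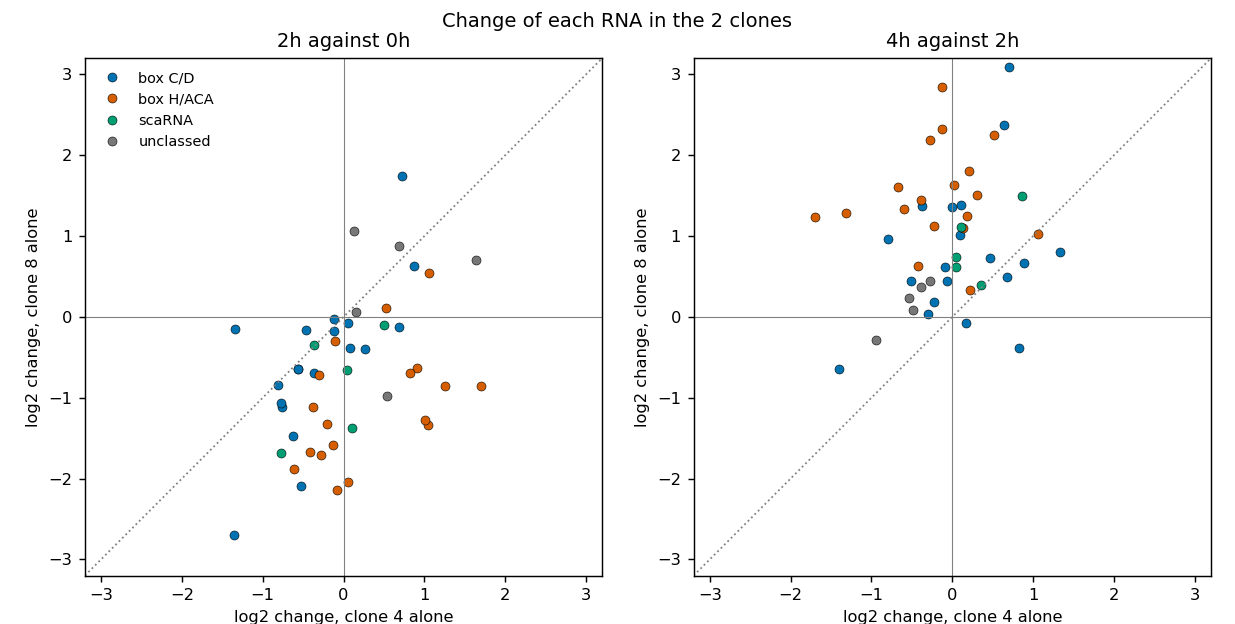
Log2 change of each member tested in both clones, clone 4 alone on the x axis and clone 8 alone on the y axis, coloured by class; the dotted line marks equal change. At 2h against 0h all 18 box H/ACA points lie below the line, and at 4h against 2h 17 of 18 lie above it.

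Induction for 4 h left few differences from the start. At 4h against 0h no member of 50 was called by edgeR or by DESeq2, where edgeR called 12.9% of all genes, 7.35% higher and 5.56% lower. An unadjusted p under 0.05 was held by 4 members, all higher, and no share of all genes is given at that threshold. The count of calls was 1 without either clone 4 library of 4h and 2 without library 1 of clone 8 at 4h. The median change was 0.16. The clone 8 libraries of 4h disagreed, library 1 holding 114 CPM of box C/D and 97.2 of box H/ACA RNA and library 2 holding 54.2 and 63.6. At 4h against 2h 5 members were called, all higher (12.1% of all genes called, 5.78% higher and 6.36% lower): Snord13, Snord32a, Gm25117, Gm23119 and Gm22270, with the values given above. That count was 9 without library 1 of clone 4 at 2h or at 4h, 8 without library 2 of clone 8 at 4h, 3 without library 2 of clone 4 or library 1 of clone 8 at 4h, 2 without library 2 of clone 8 at 2h, and 0 without both clone 8 libraries of 2h. The last of these fits called 12.8% of all genes, and no such share is given for the fits that left out 1 library.

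MEK inhibition did not bring a call either. At rev against 4h no member was called by edgeR or DESeq2, where edgeR called 9.61% of all genes, 4.5% higher and 5.1% lower. An unadjusted p under 0.05 was held by 4 members, 2 in each direction, with no share of all genes given at that threshold. The count of calls was 1 or 2 without library 1 of clone 4, library 1 of clone 8 or library 2 of clone 8 at 4h. At rev against 2h none was called by either tool, where edgeR called 1.78% of all genes, 0.769% higher and 1.01% lower. Without library 1 of clone 8 at 4h 1 was called. An unadjusted p under 0.05 was held by 16 members, all higher. That count cannot be set against 1.78%, as no share of all genes is given at the unadjusted threshold. Against 0h, Gm22009 rose by 0.69 (SE 0.213, adjusted p = 0.0444), where 10.5% of all genes were called, 5.51% higher and 4.94% lower. Its levels were 8.99, 4.09, 6.64 and 6.61 CPM at 0h, 9.98, 7.88, 6.46 and 5.96 at 2h, 9.87, 8.38, 8.85 and 10.4 at 4h and 10.5, 7.95, 10.9 and 12.9 at rev. The rev and 0h libraries overlapped, and Gm22009 lost the call in 7 of the 16 fits that left out 1 library. The count was 0 without library 2 of clone 4 or library 1 of clone 8 at 0h, library 2 of clone 4 at 4h, or library 1 of clone 4 or either clone 8 library at rev, and 2 without either clone 8 library of 4h. Between the clones, the rev against 4h change differed in 1 member (13.2% of all genes called, 6.3% higher and 6.89% lower): Gm24339, a predicted gene with box C/D letters in Cep295, by 1.35 (SE 0.414, adjusted p = 0.0264). That count was 0 without library 1 of clone 4 or of clone 8 at 4h, library 2 of clone 4 at rev or library 1 of clone 8 at rev, 2 to 4 without any of the other libraries of 4h and rev, and 0 by DESeq2. At 4h against 0h the clones differed in none by edgeR or DESeq2, where edgeR called 5.72% of all genes, 2.03% higher and 3.69% lower. Without library 2 of clone 8 at 4h 3 were called. An unadjusted p under 0.05 was held by 6 members, again with no share of all genes given at that threshold.

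The groups 2h and rev, each taken 2 h after a compound was added, were also set against 0h and 4h, a contrast chosen because an earlier look at these data had shown such a split. It called 5 of 50 members, 4 lower and 1 higher, where 17.7% of all genes were called, 8.01% lower and 9.73% higher. Snord13 changed by -1.43 (SE 0.272, adjusted p = 0.00165), Snord32a by -0.91 (SE 0.287, adjusted p = 0.0343), Gm23119 by -0.89 (SE 0.184, adjusted p = 0.00324) and Gm25117 by -0.85 (SE 0.235, adjusted p = 0.0175). Snord65 changed by 1.03 (SE 0.252, adjusted p = 0.00914), and its host 2410006H16Rik by 0.46 (adjusted p = 0.0119). Leaving out single libraries gave 4 to 11 calls, with 11 without library 1 of clone 4 at 2h and 8 without library 1 of clone 4 at 4h. No share of all genes is given for these fits.

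The clones were also compared over the 4 groups in 1 fit. Of 50 members 11 were called, 10 lower and 1 higher, where 34.9% of all genes were called, 17.8% lower and 17.1% higher. All 19 tested box C/D members lay below 0, with a median of -0.39, and the median was -0.54 over the 6 scaRNAs, of which 4 were called. Gm22442 was lower by -1.06 (SE 0.265, adjusted p = 0.00384), Scarna17 by -0.94 (SE 0.281, adjusted p = 0.0132), Gm23119 by -0.77 (SE 0.184, adjusted p = 0.00273) and Scarna2 by -0.31 (SE 0.102, adjusted p = 0.0234). Snord13 was lower by -0.83 (SE 0.271, adjusted p = 0.0214), and Gm26165, Snora31, Gm24616, Snord65 and Snord49a by -0.84 to -0.63. Gm24494, an unclassed RNA in Rabggtb, was higher by 0.86 (SE 0.215, adjusted p = 0.00399). Other short RNAs had a median of 0.36, and the 1 called among them, the telomerase RNA Terc, was lower by -0.71 (adjusted p = 0.000317). Without both clone 8 libraries of 2h 3 of 57 members were called, 2 lower and 1 higher, where 26.5% of all genes were. These were Gm22442, Gm23119 and Gm24494, and no box C/D or H/ACA RNA was among them. The H/ACA median was then 0.16, with 14 above 0 and 8 below. Without both clone 8 libraries of 4h 18 of 55 were called, 17 lower and 1 higher, a count for which no share of all genes is given here.

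**Figure D4:**
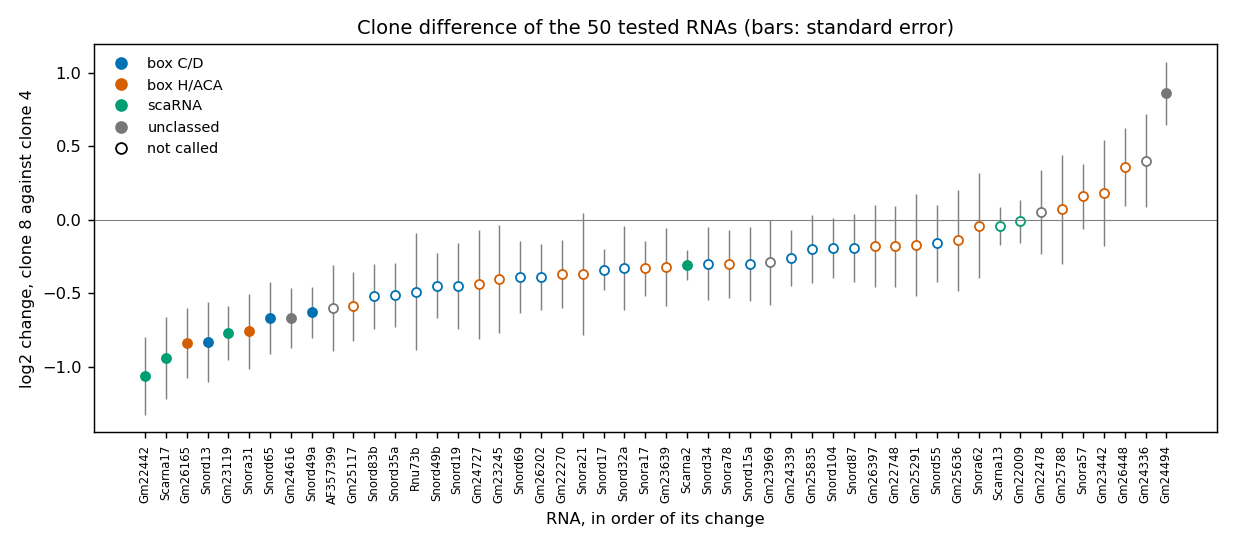
Log2 difference of clone 8 against clone 4 for the 50 tested members, in order of size, coloured by class; bars are standard errors and filled points were called. Gm22442, at -1.06, and Gm24494, at 0.86, are the ends of the range.

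Intronic members were compared with the genes that hold them. Of the 62, 54 lay within 43 host genes, 19 of them in 13 ribosomal protein genes, and 8 had no annotated host: Scarna2, Snord13, Gm23119, Snord104, Scarna17, Snora57, Snora17 and Gm22478. The hosts as a whole summed to 5910 ± 93.6 CPM at 0h and 6510 ± 98.1 at 2h (SD, n = 4). At 2h against 0h 37 of 42 tested hosts were above 0, while 35 of 50 members were below 0. Of the hosts 8 were called higher, where 9.49% of all genes were called higher. Among 41 intronic members with a tested host, 6 members and 6 entries for hosts were called at 2h, and in no case both. Of all tested genes 17% were called at 2h. In the comparison of the clones, where 34.9% of all genes were called, 21 of the 41 pairs shared a sign. Among the 41 pairs 7 members and 14 entries for hosts were called. Both were called for 5, each of these in the same direction. Gm24494 and Rabggtb were higher in clone 8 by 0.86 and 0.63, Gm22442 and the chromatin remodeller gene Chd3 lower by -1.06 and -0.88, Snord49a and Snord65 lower by -0.63 and -0.67 with 2410006H16Rik at -0.41 (Snord65 lost its call in 12 of the 16 fits that left out 1 library), and Gm24616 lower by -0.67 with Eif4a2 at -0.25. Gm24616 shares 7.19% of its length with an exon of Eif4a2, and Snord69 and Snord19 lie wholly over exons of Gnl3, so some of their reads may come from the host. For the other intronic members, gene counts from total RNA do not separate the RNA from unspliced host RNA, and this was not tested.

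**Figure D5:**
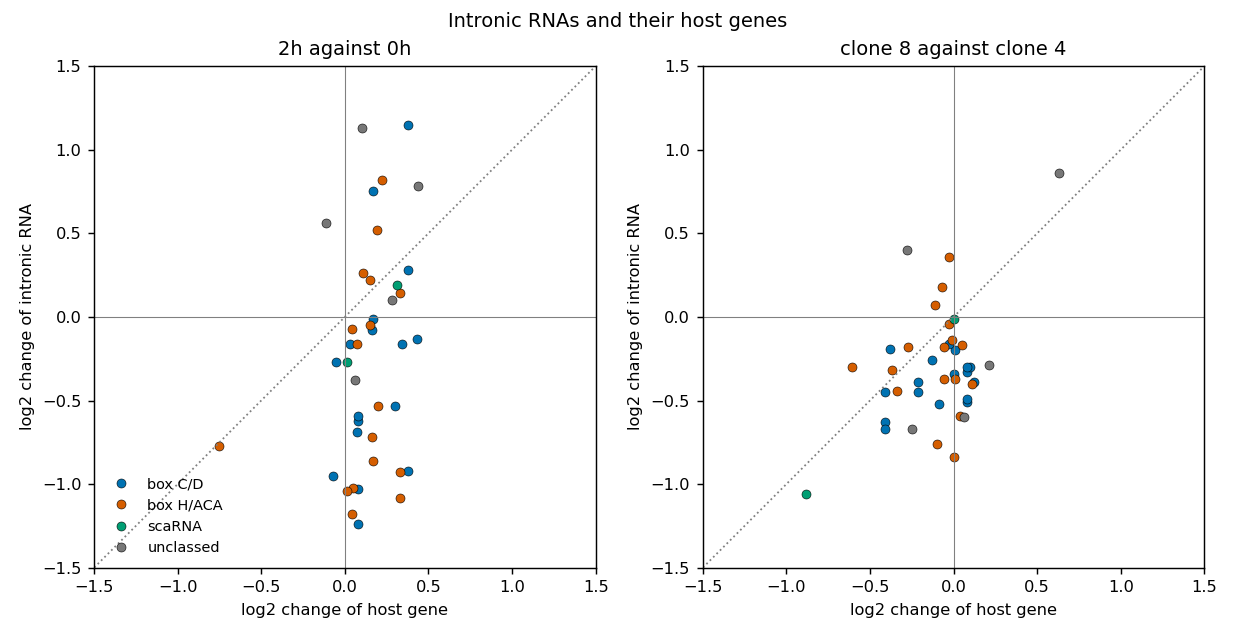
Log2 change of 41 intronic members (y axis) against that of their host genes (x axis), at 2h against 0h and for clone 8 against clone 4, coloured by class; the dotted line marks equal change. At 2h the hosts lie between -0.75 and 0.44 and the members between -1.24 and 1.15; between clones Gm24494 and Gm22442 lie near the line with their hosts.

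Genes of the snoRNA pathway were taken from lists of core proteins, assembly factors and Cajal body proteins, and the groups were not compared by a test. At 4h against 0h, where 7.35% of all genes were called higher, 6 of 11 assembly factors rose and 0 fell: Naf1, the chaperone of immature H/ACA particles, by 0.79 (SE 0.102, adjusted p = 4.97e-05), and Rpap3, Ruvbl1, Znhit6, Nufip1 and Nolc1 by 0.32 to 0.47. Among core proteins Nop58 rose by 0.50 (SE 0.0863, adjusted p = 0.000776), Gar1 by 0.53 (SE 0.105, adjusted p = 0.00237) and Nhp2 by 0.47 (SE 0.107, adjusted p = 0.0063). These make 1 of 4 box C/D and 2 of 4 H/ACA core genes. Smn1 was the 1 called gene of 4 for Cajal body proteins, at 0.38 (SE 0.103, adjusted p = 0.0188). The other 3 of that list lay below 0, 2 of them at an unadjusted p under 0.05, and the list median was -0.32. At rev against 4h, where 5.1% of all genes were called lower, 3 of 11 assembly factors (Naf1, Ruvbl1 and Rpap3) and the H/ACA core gene Nop10 fell, Naf1 by -0.62 and Nop10 by -0.69. At 2h against 0h, where 17% of all genes were called, Nop58, Tgs1, which modifies the caps of RNAs of free-standing genes, and Znhit6 rose, by 0.45, 0.54 and 0.42, and Gemin2 fell by -0.57. These changes are over both clones together. At 2h the clones differed in 2 of 4 Cajal body genes, where 7.94% of all genes were called. They also differed in 1 of 4 box C/D core genes and 1 of 11 assembly factors. For rev against 4h, where 13.2% were called, they differed in 3 of 11 assembly factors, 1 of 4 box C/D core genes and 1 of 4 Cajal body genes.

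Of 14 tested noncoding hosts of snoRNAs, Gas5, Snhg1 and Snhg6 rose at 2h, by 0.57, 0.53 and 0.43, and Snhg11 fell by -0.49, where 9.49% of all genes were called higher and 7.48% lower. At 4h against 0h Meg3, Rian and Mirg, transcripts of an imprinted cluster that hosts many box C/D RNAs and in which no member lies, rose by 0.71, 0.62 and 0.90, and Snhg11 fell by 0.59. At rev against 4h they fell by -1.13, -0.96 and -1.31, while Gas5, Snhg1 and Snhg5 rose by 0.52, 0.45 and 0.75. In clone 8 10 of the 14 were lower and 0 higher, where 17.8% of all genes were called lower, Meg3 by -1.57 and Snhg8 by -1.05.

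Library totals ran from 4.31 to 10.4 M counts, of which 1.30 to 5.46 M lay outside the 8 most abundant features. In each of the 8 pairs of libraries from the same clone and group the counts were further apart than sampling allows, so none was merged. The rev library 1 of clone 8 had the lowest TMM factor, 0.537, and 743 member counts, the fewest of any library.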

How the data were processed

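RNA was measured in 16 libraries, 4 in each of 4 groups and 8 of each clone. Total RNA was depleted of ribosomal RNA and made into libraries with NEBNext kits, per the labels' protocols. The authors deposited 1 table of raw counts for 52636 Ensembl gene IDs with 1 column per library and no normalization, per the file headers. The submitters' processing notes list bcl2fastq 2.19.1, STAR 2.5.3a and the build mm10; the counting program, annotation, strand setting and treatment of reads with several matches are not given in the sources used here. Of the IDs, 52489 matched GENCODE M21 (GRCm38), which gave types, symbols, coordinates and transcript sequences.

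Low genes were removed with edgeR's filterByExpr on the 4 groups (at least 10 counts in enough libraries, 15 in total), and the 12742 left were scaled by TMM. Group effects were tested by quasi-likelihood in edgeR 4.0.16 under R 4.3.3, adjusting for clone, on all 16 libraries together. Clone differences used the 8 combinations of group and clone. P-values were adjusted by Benjamini-Hochberg over all tested genes, with calls under 0.05. Shares of all genes called use this threshold, and no share was taken at an unadjusted p. Standard errors are the change divided by the root of the F statistic. A host is a gene of the same strand whose span holds the RNA; hosts and members were compared where both were tested and the host is no snoRNA. The limits given for a count of 0 hold for counting error, as PCR copies were not removed by molecular identifiers. The procedure was tested on simulated counts.

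Named were, for each comparison, the 5 largest called rises and falls whose higher group averaged 50 counts or more, the 5 members of each class by symbol with the highest level per kilobase, all scaRNAs and a list of well-known RNAs. Among those named for their level alone are Snora17, Snora41, Snora57 and Snora78, at 20.3, 6.30, 21.9 and 36.6 CPM per kb. The members and lists were chosen with earlier results of these data known. Alternatives were RLE size factors, library totals, DESeq2 (1.42.0), no filter, a replicate block, no clone covariate, no features above 1%, each clone alone and each library left out; 2 fits without both clone 8 libraries of 2h or of 4h were added after the data were seen. The sequences of Snord13 and of members on chromosome 18 are not reported here.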

Additional observations from a re-analysis of the deposited data

Results flagged for a closer look

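The response to 2 h of induction differed between the clones by an interaction test in Gm26397, at -2.29, and in Gm24727, at -2.58, both log2 values of clone 8 less clone 4. The response from 4h to rev differed in Gm24339, at 1.35. Other short RNAs had a median of -1.26 in the first of these differences, and the share of features above 1% was 52.1% and 46.7% in the clone 8 libraries of 2h; their part was not tested.

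Among 88 groups of 4 libraries looked at, 3 held a library that stood far from the others, and chance gives about 1 in 20. Snora31 stood at 1.52 CPM in library 2 of clone 4 at 0h, Scarna13 at 15.5 CPM in library 2 of clone 8 at 0h, and Scarna13 at 16.5 CPM in library 1 of clone 4 at 2h. Each was the highest of its group.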

How the results depend on the processing

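Counts of called members depended on the processing, and no called change reversed its sign under an alternative. Changes near 0 that were not called did, such as Gm26397 at 2h against 0h, at -0.07 and at 0.87 without both clone 8 libraries of 2h. Causes were not tested. Where no share of all genes called is given, a count cannot be set against the genes at large. At 2h against 0h the 9 calls became 4 with library totals, 14 with no filter, 4 with the replicate block, 0 with no clone covariate, 4 in clone 4 alone, 16 in clone 8 alone and 1 without both clone 8 libraries of 2h. All-gene shares were 3.5% with library totals, 20.7% in clone 4 alone, 17.8% in clone 8 alone and 10.9% without those libraries. At 4h against 0h the 0 became 1 with no filter, 3 in clone 4 alone, 1 in clone 8 alone and 3 without both clone 8 libraries of 4h. Shares of all genes were 19% in clone 4 alone and 6.28% in clone 8 alone. At 4h against 2h the 5 became 13 with no filter, 0 with no clone covariate, 3 in clone 4 alone, 19 in clone 8 alone and 0 without both clone 8 libraries of 2h. Here 27.1% of all genes were called in clone 4 alone, 9.65% in clone 8 alone and 12.8% without those libraries. At rev against 4h the 0 became 1 with library totals, 3 with no filter, 5 in clone 4 alone, 2 in clone 8 alone and 3 without both clone 8 libraries of 4h. Library totals called 4.16% of all genes, clone 4 alone 24.6% and clone 8 alone 6.42%. At rev against 0h the 1, which was higher, became 5 with no filter (3 higher, 2 lower), 0 with no clone covariate, 2 higher without the features over 1% and 2 lower in clone 4 alone, and with library totals the 1 call was another member, lower. Clone 4 alone called 16.8% of all genes there, and library totals 3.52%. At rev against 2h the 0 became 9 with no filter and 10 in clone 8 alone, where 3.49% of all genes were called. For 2h and rev against 0h and 4h the 5 became 8 with no filter, 2 with no clone covariate and 12 in clone 8 alone. In that last fit 14.8% of all genes were called. For clone 8 against clone 4 the 11 became 6 with library totals, 3 without both clone 8 libraries of 2h and 18 without both clone 8 libraries of 4h. The fit without those of 2h called 26.5% of all genes. For the clone difference at 2h the 2 became 1 with library totals, 0 with DESeq2 and 8 with no filter, at 4h the 0 became 2 with no filter, and for rev against 4h the 1, which was higher, became 6 with library totals, all lower, 0 with DESeq2 and 4 with no filter, 3 of them lower. Leaving out 1 library gave 2 to 14 calls at 2h against 0h, 0 to 2 at 4h against 0h, 2 to 9 at 4h against 2h, 0 to 2 at rev against 4h, 0 to 2 at rev against 0h, 0 to 1 at rev against 2h, 4 to 11 for 2h and rev against 0h and 4h, 8 to 16 for clone 8 against clone 4, and 1 to 4, 0 to 3 and 0 to 4 for the 3 clone differences. The summed H/ACA change at 2h moved from -0.33 to -0.67 without library 1 of clone 4 at 2h.

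Libraries of the same number did not pair: over 12 pairs of groups the correlation of their deviations ran from -0.133 to 0.119, with 1 over 0.1, and the replicate block gave 4 calls at 4h against 2h. Most members held few counts, which limits what a missing call can say.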
